A study of Mus musculus with 4 samples.

Results

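The genes of the glutamate, GABA and glycine receptor subunits were followed in the E16 cerebral cortex of Cd93 knockout (KO) and wild-type (WT) C57BL/6 mouse embryos. The set was chosen by gene symbol among protein-coding genes and covers ionotropic and metabotropic glutamate receptors, GABA-A and GABA-B receptors and glycine receptors. It holds 44 of the 20385 genes that are in both deposited tables. Another 4 subunit genes, Gabra6, Glra3, Glra4 and Grm6, are in table A only, with 1 to 3 counts in each of its libraries. The groups are the libraries KO 5 and KO 6, with Cd93 knocked out, and the libraries WT 1 and WT 4, all from cortex of embryonic day 16. Table A holds KO 6 with WT 1 and table B holds KO 5 with WT 4. Which part of Cd93 was deleted and the number of embryos behind a library are not given in the labels. The design text speaks of triplicates, while 2 libraries per genotype are labelled. Nothing says that the libraries came from separate animals, so p-values measure the spread between these libraries, which may be technical.

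Glutamate excites neurons through AMPA, kainate and NMDA receptors, which are tetrameric channels, and acts more slowly through metabotropic receptors coupled to G proteins. GABA opens pentameric chloride channels, the GABA-A receptors, most of which combine alpha, beta and gamma subunits, and glycine opens related channels of alpha and beta subunits. In embryonic cortex these receptors appear before most synapses, and the subunit composition shifts around birth, with Grin2b, Gabra2, Gabra3, Gabra5 and Glra2 known as early subunits and Grin2a as a late one.

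The counts do not tell apart transcripts that differ by RNA editing. ADAR enzymes recode a glutamine codon in the pore of the AMPA subunit GluA2, and in the kainate subunits GluK1 and GluK2, to one read as arginine, and in GluA2 this closes the channel to calcium. The genomic coding sequence around that codon is shown for the AMPA subunits and these kainate subunits, so that the recoded place can be seen beside its unedited relatives. Capitals mark the glutamine codon, and the sequences are from GENCODE release M21 on GRCm38.
Gria1: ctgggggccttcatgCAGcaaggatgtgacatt
Gria2: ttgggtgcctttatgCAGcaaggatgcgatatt
Gria3: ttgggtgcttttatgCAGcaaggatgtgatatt
Gria4: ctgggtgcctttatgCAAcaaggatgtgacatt
Grik1: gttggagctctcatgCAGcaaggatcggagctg
Grik2: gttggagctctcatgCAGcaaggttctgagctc
The Gria2 codon lies in exon 11 of 1 transcript, at chr3:80706911-80706913 on the minus strand, and encodes residue 607 counted from the initiating methionine. Over the 33 bases shown, Gria3 shares 31, Gria4 29, Gria1 28, Grik1 22 and Grik2 21 with Gria2. Gria4 carries CAA where the others carry CAG. Adar, which encodes an editing enzyme, was at 85.6 and 89.4 CPM (counts scaled to a common library total) in KO 5 and KO 6, against 92.7 and 74.9 CPM in WT 1 and WT 4. Adarb1, whose product ADAR2 edits the Gria2 site, was at 38.6 and 39.7 CPM in KO 5 and KO 6, against 39.2 and 36.1 CPM in WT 1 and WT 4. The groups overlap for both enzymes, and the log2 fold changes were 0.06 for Adar and 0.06 for Adarb1 (SE 0.13 and 0.11).

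The libraries held 17555476 counts in KO 5 and 16318317 in KO 6, and 17586157 in WT 1 and 17158867 in WT 4. The receptor genes took 0.256% to 0.298% of the counts. Cd93 checked the labels: it had 111 and 99 counts in KO 5 and KO 6, against 680 and 409 in WT 1 and WT 4, a log2 fold change of -2.32 (SE 0.25) that missed the threshold over all genes (edgeR adjusted p = 0.21). Of 12 markers of the ganglionic eminence and striatum, 0 were higher and 12 lower in KO, with summed levels of 527 and 578 CPM in KO 5 and KO 6, against 1065 and 653 CPM in WT 1 and WT 4. For 7 markers of meninges and fibroblasts, all lower in KO, the sums were 28.9 and 42.7 CPM in KO 5 and KO 6, against 448 and 68.0 CPM in WT 1 and WT 4. For 8 markers of dorsal projection neurons, 7 of them higher in KO, the sums were 3928 and 3725 CPM in KO 5 and KO 6, against 3276 and 3848 CPM in WT 1 and WT 4. None of these markers was at 0 counts in all libraries and none passed the test. The dorsal markers that the label of cerebral cortex calls for were present in every library. WT 1 stood apart by several lists, the meningeal and ganglionic eminence genes among them. Endothelial markers summed to 105 and 101 CPM in KO 5 and KO 6, against 178 and 103 in WT 1 and WT 4. For oligodendrocyte precursors the sums were 43.8 and 50.1 CPM, against 81.0 and 45.0, and for microglia 26.8 and 27.1 CPM, against 43.0 and 31.8, in the same order. The dorsal sum was highest in KO 5.

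Levels differed far more between subunits than between genotypes. On the scale of CPM per kb of exon, which allows genes of different length to be compared, Gria2 led with a mean of 49.0 in KO and 49.96 in WT. Grik5, the kainate subunit GluK5, followed with 48.4 in KO and 47.8 in WT, and Gabbr1, the GABA-binding subunit of the GABA-B receptor, with 44.1 in KO and 41.3 in WT. Gria1, Grik3 and Glra2 were also above 10 CPM per kb, and 7 of the 44 genes were above that level and 30 above 1. The 8 highest genes held 71.7% of the summed CPM per kb of the set. Neighbours in this order mostly do not differ beyond their spread: Grik5 was at 53.5 and 43.3 in KO 5 and KO 6, against 46.1 and 49.5 in WT 1 and WT 4, which overlaps the values of Gria2. Exon lengths count every annotated exon, long untranslated ends included, so a gene such as Grin2b with 24842 bases is placed low.

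**Figure D1:**
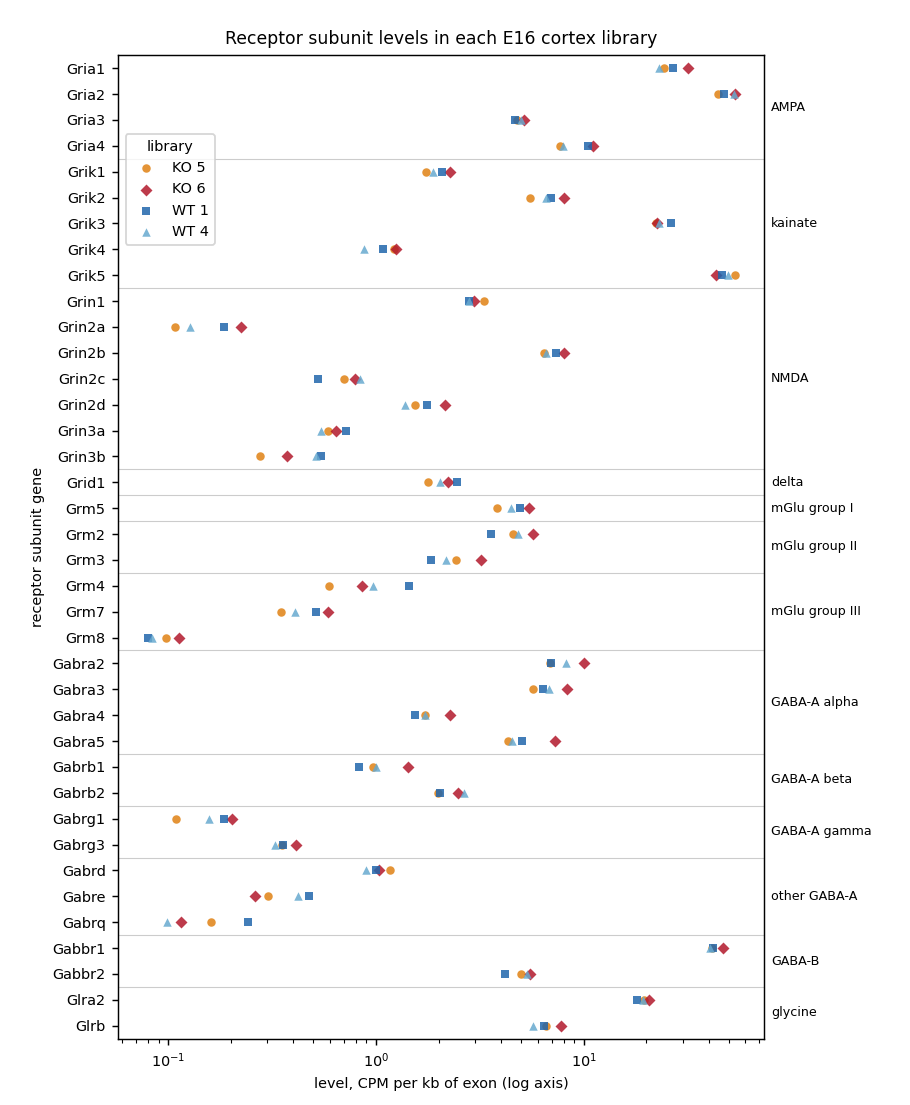
Level of each of 38 tested subunit genes in CPM per kb of exon on a log axis, with 1 point per library (KO 5, KO 6, WT 1, WT 4) and genes grouped by receptor class. The libraries of a gene sit close together compared with the distance between genes, and the point of KO 6 is the rightmost in 26 of these 38.

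No subunit gene passed the test between KO and WT. The edgeR quasi-likelihood test with Benjamini-Hochberg adjustment over 16371 genes called 0 of the 43 genes tested and 2 genes in all, which is 0.0122% of them. Of the 43 genes, 0 had an unadjusted p under 0.05, against 317 of all genes tested, and DESeq2 and limma-voom also called 0 and gave 0 at that level. With the deposited table as a block in the model, 0 of 43 were called and 0.177% of all genes. Gabrr2, a rho subunit known mainly from retina, was not tested, with 0 and 2 counts in KO 5 and KO 6, against 5 and 5 in WT 1 and WT 4. A count of 0 in KO 5 allows up to 0.171 CPM, the level of 3 counts, for counting error only.

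The log2 fold changes were positive for 30 genes and negative for 13, with a median of 0.08, while over all genes tested 8022 were positive and 8349 negative, with a median of -0.003. In size, 35 of 43 were under 0.3. All 43 of the 95% intervals include 0, and they bound the differences: 34 stay within 1 log2 unit of 0, a 2-fold change, and 19 stay within a 1.5-fold change. A missed threshold does not show equal levels, and for 9 genes these data do not bound the difference to 2-fold. In bulk tissue, fewer cells of a type and less RNA per cell cannot be told apart.

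**Figure D2:**
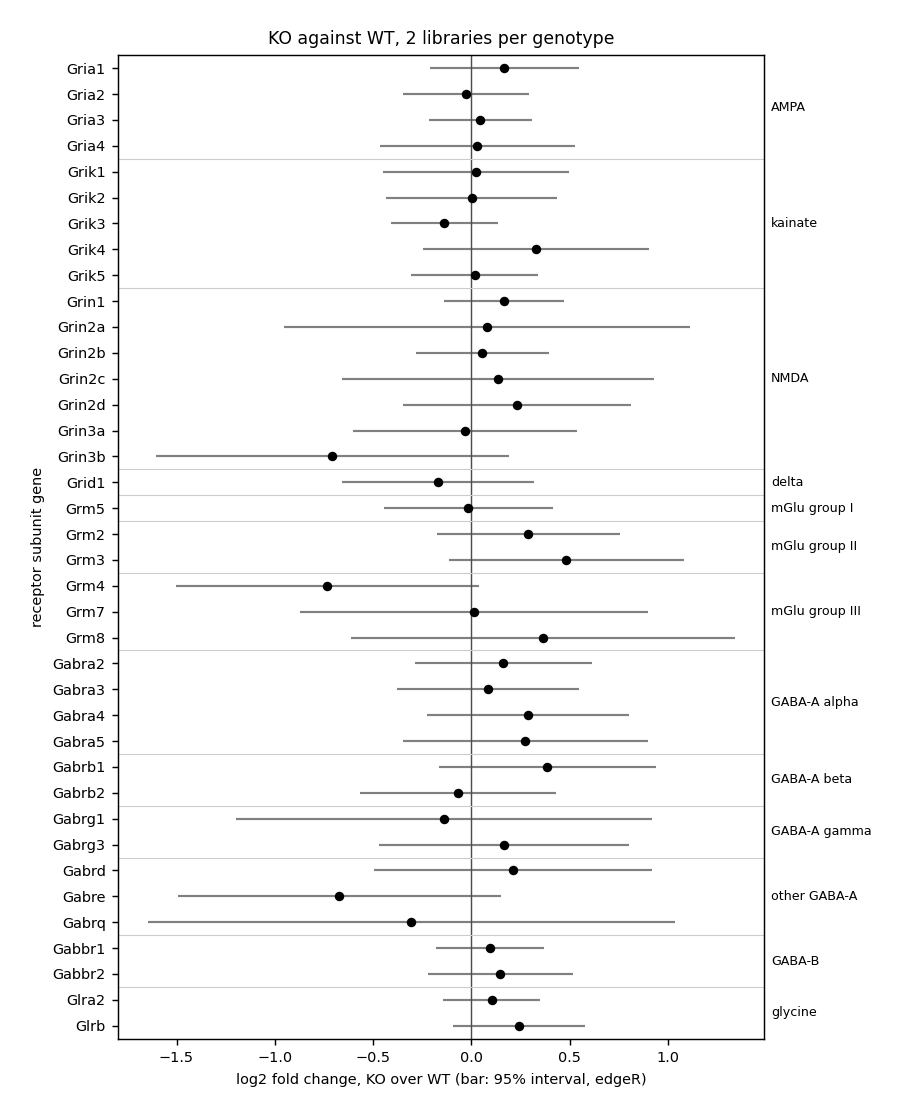
Log2 fold change of KO over WT for 38 tested subunit genes, with the edgeR estimate as a point and its 95% interval as a bar, grouped by receptor class. Every bar crosses 0, and the points farthest from it are those of Grm4, Grin3b and Gabre on the left and Grm3 on the right.

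Among the AMPA subunits, Gria2 was at 691 and 832 CPM in KO 5 and KO 6, against 734 and 820 CPM in WT 1 and WT 4. The ranges overlap, with KO 5 lowest and KO 6 highest, and the log2 fold change was -0.03 with a 95% interval of -0.35 to 0.29. Gria1, whose product pairs with GluA2 in many forebrain receptors, was at 147 and 192 CPM in KO 5 and KO 6, against 162 and 139 CPM in WT 1 and WT 4. Gria4, an AMPA subunit abundant early in life, was at 48.6 and 70.1 CPM in KO 5 and KO 6, against 66.1 and 50.2 CPM in WT 1 and WT 4, so that each genotype had 1 high and 1 low library. Gria3 was the steadiest, from 46.2 to 51.0 CPM over the 4 libraries. Of the summed AMPA level per kb, Gria2 held 54.7% and 52.7% in KO 5 and KO 6, against 52.9% and 59.4% in WT 1 and WT 4. Gria1 held 29.9% and 31.3% in KO 5 and KO 6, against 30.1% and 26.0% in WT 1 and WT 4, a mean difference of 2.52 percentage points that was the widest of the 24 shares tested. As shares of counts, not scaled by exon length, Gria1 held 15.7% and 16.8% in KO 5 and KO 6, against 16.1% and 13.2% in WT 1 and WT 4. Gria2 then held 74.0% and 72.7% in KO 5 and KO 6, against 72.8% and 77.5% in WT 1 and WT 4, so the size of a share depends on the exon length used.

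The kainate class was led by Grik5 and Grik3, whose products are a high-affinity subunit that needs a partner and a low-affinity subunit. Grik5 was at 276 and 224 CPM in KO 5 and KO 6, against 238 and 256 CPM in WT 1 and WT 4. It was the only gene of the set that was lower in both libraries of table A than in both of table B. The log2 fold change of Grik5 was 0.02 (SE 0.13). Grik3 was at 201 and 202 CPM in KO 5 and KO 6, against 236 and 206 CPM in WT 1 and WT 4, lower in both KO libraries by a margin that WT 4 makes small. Its log2 fold change was -0.14 with an interval of -0.41 to 0.14. Grik2 was at 72.8 and 107 CPM in KO 5 and KO 6, against 92.7 and 86.8 CPM in WT 1 and WT 4, the KO libraries standing on either side of the WT ones. Grik4, the other high-affinity subunit, had 127 and 121 counts in KO 5 and KO 6, against 115 and 89 in WT 1 and WT 4, a log2 fold change of 0.33 with an interval of -0.25 to 0.90.

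Grin1 encodes the subunit that every NMDA receptor needs, and it was at 32.3 and 28.6 CPM in KO 5 and KO 6, against 27.1 and 27.1 CPM in WT 1 and WT 4. Both KO values were above both WT values, and the log2 fold change was 0.17 with an interval of -0.14 to 0.47. In GENCODE an antisense gene overlaps Grin1 and Tmem259 overlaps Grin3b on the opposite strand. Whether counting used strand is not stated, so reads of such partners cannot be told apart. Grin2b was the main GluN2 subunit gene, at 159 and 200 CPM in KO 5 and KO 6, against 182 and 163 CPM in WT 1 and WT 4. It held 73.2% and 71.7% of the GluN2 level per kb in KO 5 and KO 6, against 74.9% and 73.6% in WT 1 and WT 4. As shares of counts, not scaled by exon length, Grin2b held 91.0% and 89.9% in KO 5 and KO 6. In WT 1 and WT 4 its share of counts was 91.2% and 91.2%. Grin2a, the subunit that grows in share after birth, had 34 and 65 counts in KO 5 and KO 6, against 59 and 39 in WT 1 and WT 4, with the table A library high in each genotype. Grin2a held 1.24% and 1.99% of the GluN2 level per kb in KO 5 and KO 6, against 1.89% and 1.43% in WT 1 and WT 4.

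Grin3b, which encodes a glycine-binding NMDA subunit known mainly from motor neurons, had 16 and 20 counts in KO 5 and KO 6, against 32 and 29 in WT 1 and WT 4. The groups do not overlap, and the log2 fold change was -0.71 with an interval of -1.60 to 0.19. Its relative Grin3a had 127 and 128 counts in KO 5 and KO 6, against 156 and 114 in WT 1 and WT 4, with WT 1 alone high. The delta receptor gene Grid1, which encodes a synaptic organiser rather than a typical glutamate-gated channel, had a log2 fold change of -0.17 (SE 0.20), highest in WT 1 and lowest in KO 5.

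Among metabotropic receptors the outlying values lay in groups II and III. Grm4, a presynaptic group III receptor (chr17:27422387-27513341, minus strand), had 62 and 83 counts in KO 5 and KO 6, against 153 and 98 in WT 1 and WT 4. Both KO libraries were below both WT libraries, and WT 1 was far above the rest. The log2 fold change was -0.73 with an interval of -1.50 to 0.04, and the edgeR p of 0.0594 before adjustment was the lowest of the 43 genes (adjusted p = 0.9999). The ratio was -0.74 within table A and -0.68 within table B on the log2 scale, while without WT 1 the log2 fold change was -0.41. The ganglionic eminence and meningeal marker sums given above were lower in KO too and also highest in WT 1, and their part in the Grm4 value was not tested.

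Grm3, a group II receptor found on glia and neurons, had 130 and 158 counts in KO 5 and KO 6, against 100 and 113 in WT 1 and WT 4. Every KO value exceeded every WT value, and the log2 fold change of 0.48 (SE 0.25) was the highest of the 43 genes, with an interval of -0.11 to 1.08. Without KO 6 it was 0.28. Grm2, the other group II receptor, was at 22.4 and 27.9 CPM in KO 5 and KO 6, against 17.6 and 23.6 CPM in WT 1 and WT 4, which overlap. Astrocyte markers summed to 77.0 and 89.4 CPM in KO 5 and KO 6, against 86.8 and 70.9 CPM in WT 1 and WT 4. Of these markers 2 of 4 tested were higher in KO, 1 of them Slc1a2, whose values are given below. The part of the astrocyte markers in the Grm3 value was not tested. Grm5, a group I receptor, was at 39.3 and 56.1 CPM in KO 5 and KO 6, against 50.6 and 45.7 CPM in WT 1 and WT 4. Grm7 and Grm8, both group III, had 14 to 56 counts and log2 fold changes of 0.01 and 0.37 (SE 0.37 and 0.41).

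**Figure D3:**
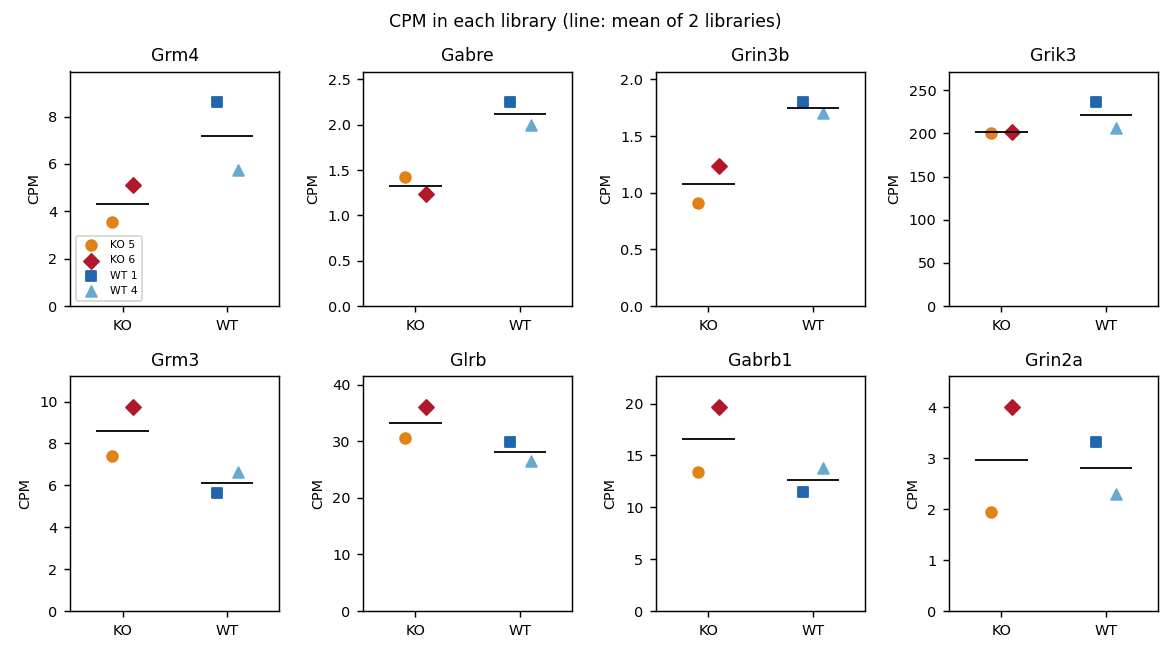
CPM in each library for 8 subunit genes, with KO 5 and KO 6 on the left, WT 1 and WT 4 on the right and a line at the mean of the 2 libraries of a genotype. Grm4, Gabre, Grin3b and Grik3 were lower in both KO libraries, Grm3 and Glrb were higher in both, and Gabrb1 and Grin2a overlapped.

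In the pooled comparison 5 of 5 GABA-A alpha genes had positive log2 fold changes, up to 0.29 for Gabra4, and 5 of 5 were highest in KO 6. In each of the 5 the KO and WT libraries overlapped. The class median of 0.16 was -0.14 without KO 6, and its median log2 ratio was 0.52 for KO 6 over WT 1 and -0.22 for KO 5 over WT 4. Gabra2, the most abundant alpha subunit gene per kb, was at 52.8 and 76.6 CPM in KO 5 and KO 6, against 53.2 and 62.4 CPM in WT 1 and WT 4. Gabra5, an extrasynaptic subunit, was at 12.8 and 21.6 CPM in KO 5 and KO 6, against 15.1 and 13.4 CPM in WT 1 and WT 4. KO 5 was the lowest library for both genes, so the positive values rest on KO 6, and without KO 6 the log2 fold changes were -0.13 for Gabra2 and -0.14 for Gabra5.

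Gabra2 held 35.6% and 34.1% of the alpha level per kb in KO 5 and KO 6, against 32.8% and 36.9% in WT 1 and WT 4. Gabra3 held 29.4% and 28.3% in KO 5 and KO 6, against 30.0% and 30.9% in WT 1 and WT 4. Gabra2 led Gabra3 in all 4 libraries, while the summed alpha level was 19.4 and 29.3 CPM per kb in KO 5 and KO 6, against 21.2 and 22.1 in WT 1 and WT 4.

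Gabrb1, a beta subunit gene, had 235 and 319 counts in KO 5 and KO 6, against 204 and 235 in WT 1 and WT 4, a log2 fold change of 0.39 with an interval of -0.16 to 0.94. KO 5 and WT 4 tied at 235 counts, and the ratio was 0.77 within table A and -0.04 within table B. Gabrb2, the beta subunit of many adult receptors, had 221 and 255 counts in KO 5 and KO 6, against 229 and 287 in WT 1 and WT 4, which overlap. The gamma subunit gene Gabrg3 had 74 and 80 counts in KO 5 and KO 6, against 76 and 66 in WT 1 and WT 4, and Gabrg1 had 15 and 26 in KO 5 and KO 6, against 26 and 21 in WT 1 and WT 4. Their intervals, -0.47 to 0.80 for Gabrg3 and -1.20 to 0.92 for Gabrg1, are wide.

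Gabre, which encodes the epsilon subunit, had 25 and 20 counts in KO 5 and KO 6, against 40 and 34 in WT 1 and WT 4. The groups do not overlap, and the log2 fold change was -0.67 with an interval of -1.49 to 0.15. Gabrd, the delta subunit of extrasynaptic receptors, had 59 and 48 counts in KO 5 and KO 6, against 51 and 44 in WT 1 and WT 4. Its counts overlap, while on the CPM scale the KO values, 3.37 and 2.96, were above the WT values, 2.87 and 2.58. Gabrq, the theta subunit, had 15 and 10 counts in KO 5 and KO 6, against 23 and 9 in WT 1 and WT 4. These are too few to place it, with an interval of -1.65 to 1.03.

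**Figure D4:**
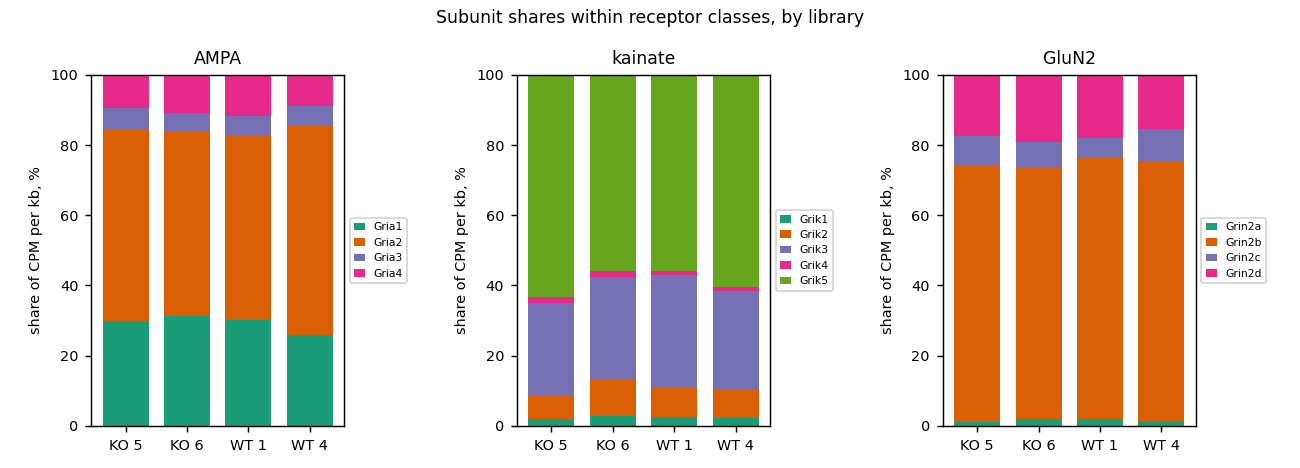
Share of each subunit in the summed CPM per kb of its class, in percent, for AMPA, kainate and GluN2 subunits, with bars for KO 5, KO 6, WT 1 and WT 4. The same subunit leads each class in all 4 libraries, with Gria2, Grik5 and Grin2b holding the widest bands.

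In all, 24 subunit shares were compared between KO and WT. The smallest p that an exact two-sided permutation test of 2 against 2 libraries allows is 0.333, 7 shares reached it, and the Benjamini-Hochberg adjusted value was 1 for each. This design cannot reach 0.05 for a share.

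Many GABA-A genes lie in clusters that join alpha genes to beta, gamma or related genes, and 2 clusters are described here. The chromosome 5 cluster, at chr5:70751047-72149037, holds Gabrg1, Gabra2, Gabra4 and Gabrb1, and its summed level was 9.71 and 13.9 CPM per kb in KO 5 and KO 6, against 9.52 and 11.05 in WT 1 and WT 4. KO 6 was highest there and KO 5 lay within the WT range. The X chromosome cluster of Gabre, Gabra3 and Gabrq summed to 6.18 and 8.67 CPM per kb in KO 5 and KO 6, against 7.08 and 7.36 in WT 1 and WT 4, with KO 5 lowest and KO 6 highest. Most of this sum was Gabra3, at 5.72 and 8.29 in KO 5 and KO 6, against 6.37 and 6.84 in WT 1 and WT 4. Gabre went the other way, at 0.30 and 0.26 in KO 5 and KO 6, against 0.48 and 0.42 in WT 1 and WT 4. Gabra4 and Gabrb1 overlap head to head by 196 bases as deposited, and how reads from that stretch were counted is not stated.

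Gabbr1 was at 320 and 364 CPM in KO 5 and KO 6, against 327 and 314 CPM in WT 1 and WT 4, and Gabbr2, which carries the signal to the G protein, was at 33.5 and 37.0 CPM in KO 5 and KO 6, against 28.0 and 35.7 CPM in WT 1 and WT 4. Both pairs of groups overlap. Glra2, the embryonic glycine receptor alpha subunit, was at 61.1 and 65.0 CPM in KO 5 and KO 6, against 56.8 and 60.7 CPM in WT 1 and WT 4. Its interval of -0.15 to 0.35 was the narrowest of the 43. Glrb, the beta subunit that binds gephyrin, was at 30.5 and 36.1 CPM in KO 5 and KO 6, against 29.8 and 26.5 CPM in WT 1 and WT 4. Both KO values were above both WT values for each glycine gene, with a log2 fold change of 0.10 (SE 0.10) for Glra2 and 0.24 (SE 0.14) for Glrb.

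Counted over the set on the CPM scale, both KO libraries were above both WT libraries in 7 of 43 genes, namely Grik4, Grin1, Grm3, Grm8, Gabrd, Glra2 and Glrb, where 11.5% of all genes tested were. Both KO libraries were below both WT libraries in 4 of 43, namely Grik3, Grin3b, Grm4 and Gabre, where 11.9% of all genes were. Neither count stands far from its background.

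The KO libraries differed from each other in 1 direction over most of the set. KO 6 was the highest library for 30 of 43 genes, or 69.8%, where it was the highest for 25.9% of all genes tested. KO 5 was the lowest for 20 of the 43, a count for which the share over all genes was not computed. Over the set, the median log2 ratio of KO 6 to KO 5 was 0.32, with 38 of 43 above 0, and that of WT 1 to WT 4 was 0.14, with 26 above 0, while the medians over all genes were 0.005 and 0.004. KO 6 and WT 1, the libraries of table A, were both above KO 5 and WT 4 in 18 of 43 genes, where 23% of all genes were, and both below them in 1 gene, Grik5, where 22.8% of all genes were. Genes such as Gria4, Grin2a, Gabra5 and Grm7 followed this order. The summed level of the set was 2564 and 3001 CPM in KO 5 and KO 6, against 2709 and 2727 CPM in WT 1 and WT 4.

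Within tables, the median log2 ratio of KO to WT over the 43 genes was 0.20 in table A, with 34 above 0, and -0.07 in table B, with 14 above 0. By sign, 23 genes were higher in KO in table A and lower in table B, 11 were higher in both, 6 were lower in both and 3 were lower in table A and higher in table B. The positive median of the pooled comparison was thus not seen in table B, and without KO 6 it was -0.089. The 3 genes with the lowest fold changes, Grm4, Grin3b and Gabre, were lower in both tables. This follows from their choice, since each KO value was below each WT value in these genes, and it is no separate support.

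**Figure D5:**
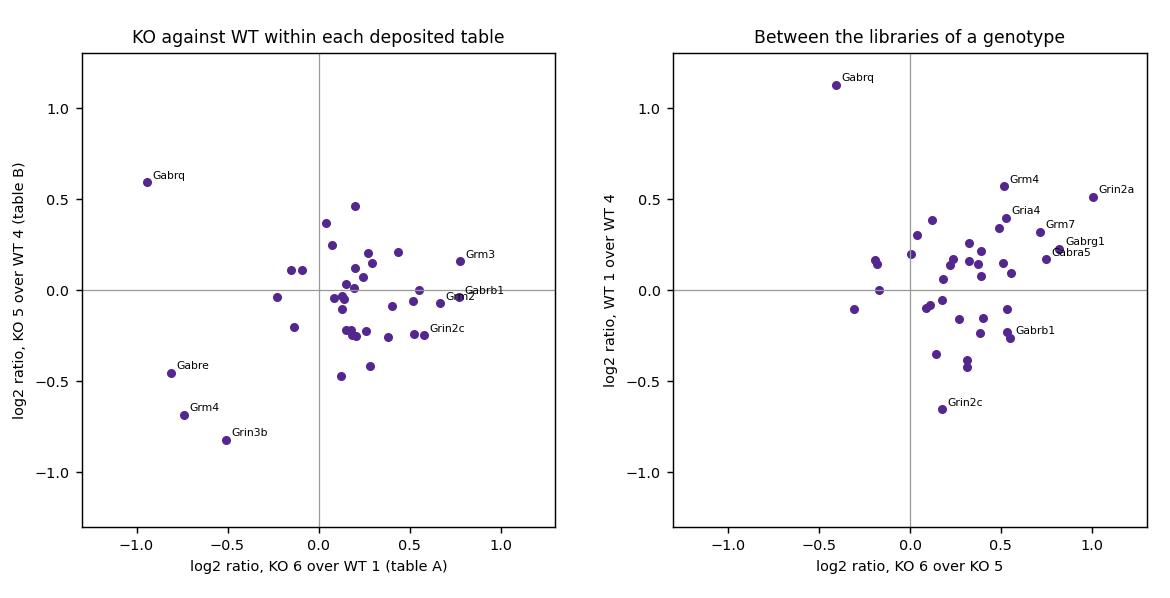
Log2 ratios of 38 subunit genes, 1 point per gene, with names for the points farthest from the centre. On the left the ratio of KO 6 to WT 1 in table A stands against that of KO 5 to WT 4 in table B, with most points right of 0, and on the right the ratio of KO 6 to KO 5 stands against that of WT 1 to WT 4, with 33 of 38 points right of 0.

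Of the marker sums, those of erythroid cells, Cajal-Retzius cells and astrocytes were highest in KO 6. The astrocyte sum includes Slc1a2. Slc1a2 had 52.8 and 58.6 CPM in KO 5 and KO 6, against 39.7 and 47.7 in WT 1 and WT 4. The lead of KO 6 in the astrocyte sum rests on that gene. Cajal-Retzius markers, 5 of 5 of them higher in KO, summed to 482 and 549 CPM in KO 5 and KO 6, against 472 and 452 CPM in WT 1 and WT 4. Erythroid markers, 3 of 4 of them higher in KO, summed to 652 and 1340 CPM in KO 5 and KO 6, against 966 and 870 CPM in WT 1 and WT 4. Other lists separated the KO libraries without KO 6 being the highest. Interneuron markers summed to 391 and 541 CPM in KO 5 and KO 6, against 642 and 480 CPM in WT 1 and WT 4, with 2 of 10 higher in KO. Intermediate progenitor markers summed to 558 and 359 CPM in KO 5 and KO 6, against 381 and 468 CPM in WT 1 and WT 4, with 3 of 4 higher in KO. Receptor genes have long exons, with a median of 6542 bases in the set against 4588 in all tested protein-coding genes. Among protein-coding genes at or above the median exon length of the set, the median log2 ratio of KO 6 to KO 5 was 0.02, with 27.5% highest in KO 6, against -0.02 and 23.6% in shorter genes. The part of the marker values, of exon length and of any other difference between tables in the receptor values was not tested.

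The authors' deposited tables, whose p-values compare 1 library with 1 library, marked 0 of the 44 genes as significant in table A and 0 in table B, where 4.67% and 2.31% of all genes carry the mark. Their mark asks for a 2-fold change as well as an adjusted p. The deposited adjusted p alone was under 0.05 for 19 of the 44 genes in table A, where it was for 21.2% of all genes, and for 9 of the 44 in table B, where it was for 12.9%.

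Genes that work with these receptors were described from a list of 67, of which 63 could be tested. By the edgeR test 0 were called, with 33 higher and 30 lower, while DESeq2 and limma-voom also called 0. An unadjusted edgeR p under 0.05 was found for 2 of the 63, against 317 of the 16371 genes tested. Of 20 tested auxiliary subunits and synaptic organisers, 14 were higher and 6 lower. Gsg1l, an AMPA receptor auxiliary subunit, was at 25.6 and 28.2 CPM in KO 5 and KO 6, against 21.04 and 21.03 CPM in WT 1 and WT 4, and its log2 fold change of 0.35 (SE 0.13) had an unadjusted edgeR p of 0.032. Shisa6, another AMPA auxiliary subunit, was at 19.2 and 24.0 CPM in KO 5 and KO 6, against 17.0 and 18.4 CPM in WT 1 and WT 4, without overlap, and its log2 fold change of 0.29 did not pass. Cbln4, an organiser of synapses, had 12 and 20 counts in KO 5 and KO 6, against 61 and 15 in WT 1 and WT 4, and its log2 fold change of -1.17 rests on WT 1. The 21 tested scaffold genes, among them Dlg4, Shank1, Gphn and Nlgn2, had log2 fold changes from -0.38 to 0.20 with a median of 0.01. The lowest value is that of an entry named Dlg2 (SE 0.57), for which GENCODE gave no exon length. It had only 10 and 26 counts in KO 5 and KO 6, against 31 and 18 in WT 1 and WT 4. The next lowest was -0.09, for Shank3.

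Of 6 tested genes of transmitter synthesis and degradation, 1 was higher and 5 lower in KO, and of 10 transporter genes 4 were higher and 6 lower, with 0 called. Gad1, an enzyme of GABA synthesis, was at 43.1 and 64.5 CPM in KO 5 and KO 6, against 114 and 60.3 CPM in WT 1 and WT 4. Gad2, the second GABA-synthesising enzyme gene, was at 34.5 and 62.0 CPM in KO 5 and KO 6, against 114 and 55.2 CPM in WT 1 and WT 4. For both, KO 6 exceeded WT 4 and WT 1 was far above the rest. Log2 fold changes were -0.70 for Gad1 and -0.81 for Gad2 (SE 0.32 and 0.38), and neither passed. With the table as a block both passed (edgeR adjusted p = 0.046 and 0.011), as they did without WT 4, while without WT 1 the log2 fold changes were -0.16 and -0.19. Slc32a1, the vesicular GABA transporter gene, was at 10.1 and 13.3 CPM in KO 5 and KO 6, against 19.0 and 14.4 CPM in WT 1 and WT 4, a log2 fold change of -0.51 (SE 0.22). All 3 are also on the interneuron marker list given above.

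On the glutamate side, Slc17a7, the vesicular glutamate transporter gene of cortical projection neurons, was at 53.1 and 57.8 CPM in KO 5 and KO 6, against 38.5 and 51.5 CPM in WT 1 and WT 4. Slc1a2, a glutamate transporter gene of astrocytes and their precursors, was at 52.8 and 58.6 CPM in KO 5 and KO 6, against 39.7 and 47.7 CPM in WT 1 and WT 4. In both genes each KO value exceeded each WT value, with log2 fold changes of 0.30 (SE 0.16) and 0.35 (SE 0.13), and neither passed. Slc17a7 is also on the dorsal projection neuron marker list, and Slc1a2 on the astrocyte list. The chloride transporter genes Slc12a2 and Slc12a5, whose balance sets whether GABA excites or inhibits, had log2 fold changes of -0.03 and -0.16 (SE 0.12 and 0.18).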

How the data were processed

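RNA was measured by sequencing of 4 libraries, 2 KO and 2 WT. The authors deposited raw counts per Ensembl gene with GRCm38 positions, per the file headers, and a log2 fold change and an adjusted p-value for 1 library against 1 in each table. Per the submitters' processing notes, HTSeq 0.6.0, TopHat2 2.0.12, Bowtie2 2.2.3 and mm9 were used, and their roles and any strand option are not given in the sources used here. The 4 deposited columns of normalized values were not used.

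Counts of the 20385 genes in both tables were joined. After filterByExpr, 16371 genes were tested with TMM scaling (R 4.3.3, edgeR 4.0.16, two-sided quasi-likelihood test, adjusted p threshold 0.05). Ratios within tables were taken on log2 CPM (prior count 2), and CPM per kb uses GENCODE exon lengths. Alternatives used DESeq2 1.42.0, limma 3.58.1, no filter, DESeq2's size factors, the table as a block, protein-coding genes alone and leaving out each library. The fit was tested on simulated counts. The members and lists were chosen with earlier results of these data known. Single values of 5 members are not reported here, and the members stay in every count and median over the set. Genes named are the 10 members of smallest p in each direction, the member of highest level in each class, and up to 4 partner genes per direction, others being named to describe a class after their values were seen. Text values were computed with Python 3.11.15.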

Additional observations from a re-analysis of the deposited data

How the results depend on the processing

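No receptor gene was called under any of the 10 alternatives. Among the fits that kept all 4 libraries, 1 receptor gene had an unadjusted edgeR p under 0.05 with the table as a block (Grm4), and 0 had it in the others. The share of all genes at that level was not computed for the fit with the block, so this 1 gene has no background to be set against. The count of all genes called was 2, and it became 8 with DESeq2, 29 with the table as a block and 0 with protein-coding genes alone, and leaving out 1 library gave 5 (without KO 5) to 312 (without WT 4). The partner genes called became 2 with the table as a block, and 0 to 2 when 1 library was left out. The median log2 fold change over the receptor genes ranged from -0.089 without KO 6 to 0.22 without KO 5. Over 33 named genes and 10 alternatives, 310 of 330 values kept their direction and side of the threshold, 4 (Gad1 and Gad2) newly passed, and 16, in 11 genes, turned their sign, all of them when a library was left out. On leaving out each library, the log2 fold change ran from -0.13 to 0.41 for Gabra2, -0.14 to 0.60 for Gabra5, -0.25 to 0.14 for Gabrb2 and -0.65 to 0.25 for Gabrg1. It ran from -0.80 to 0.48 for Gabrq, -0.036 to 0.35 for Gria1, -0.16 to 0.10 for Gria2, -0.14 to 0.17 for Grik5, -0.11 to 0.21 for Grin2b, -0.29 to 0.22 for Grm5 and -1.83 to 0.11 for Cbln4. The cause was not tested. The genotypes share no replicate number, so the table is the only pairing of KO with WT libraries that could be fitted. With 2 libraries per genotype, the median SE of a log2 fold change was 0.21. A genotype left with 1 library is assumed to vary like the other.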
